A study of Mus musculus with 24 samples.

Results

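Pus10 encodes an enzyme of the pseudouridine synthases, which turn uridine in RNA into pseudouridine, and it lies on mouse chromosome 11 among genes of unrelated function. The 9 genes described here are neighbours of Pus10 on that chromosome: Commd1, Xpo1, Usp34, Ahsa2, Pex13, Rel, Papolg, Bcl11a and Fancl. The 9 were listed by name with earlier results of these data known, and the list leaves out other genes as near to Pus10. These neighbours are 9 of the 55487 gene IDs counted in each of 24 libraries of sorted hematopoietic stem cells (HSCs), from which all blood lineages arise. The question is whether genes next to a targeted or altered locus differ in level together with it, above all in the libraries labelled Pus10-KO.

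The series concerns Pus10 in HSC aging and holds 3 experiments. The first has PUS10-OE cells, which overexpress PUS10 (n = 3), and their Vector controls (n = 3). The second has miR139-KD cells, with a knockdown of the microRNA miR-139 (n = 6), and NTC cells, a non-target control (n = 6). The third has libraries labelled Pus10-KO (n = 3) and Pus10-WT (n = 3). The labels give the genotype and the cell type of each library and nothing else about the groups. The allele, the vectors, the species of the introduced PUS10 sequence, and the age, strain and pooling of the mice are not given in the sources used here. No label ties the libraries of a group to separate animals. The p-values therefore rest on the spread among these libraries, part of which may be technical.

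Changing a gene can disturb the genes beside it in cis. A selection cassette can bring its own promoter, a deletion can remove an enhancer, and DNA of the embryonic stem cell strain can stay linked to a targeted allele through backcrossing. A gene added on a vector, or a microRNA lowered elsewhere in the genome, leaves the endogenous neighbourhood of Pus10 in place. The neighbours serve separate processes in HSCs. Papolg makes poly(A) tails in the nucleus and Xpo1 (also called CRM1) exports proteins and some RNAs from it. Rel is the NF-kB subunit c-Rel, and Bcl11a is a transcription factor needed for B cells and for silencing of embryonic globin genes. Usp34 removes ubiquitin, with Axin among its known substrates, and Fancl is the ubiquitin ligase of the Fanconi anemia core complex, which marks the FANCI-FANCD2 pair during DNA repair. Pex13 docks protein cargo at the peroxisome membrane, Ahsa2 is a relative of the HSP90 activator Aha1, and Commd1 acts in endosomal sorting and in the turnover of NF-kB subunits.

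Positions are from GENCODE M21 on GRCm38. Pus10 (ENSMUSG00000020280.12, plus strand) runs from 23665674 to 23732876. Its nearest neighbour is Pex13 (ENSMUSG00000020283.5, minus strand, 23646479 to 23665959), which starts inside the first part of Pus10. The 2 genes point away from each other, overlap over 286 bases and share 2 exonic bases. Rel (ENSMUSG00000020275.9, minus strand, 23736847 to 23770970) ends 3.97 kb past the end of Pus10 and points towards it. Further on lie Papolg (minus strand, 23862646 to 23895253) at a distance of 130 kb, Bcl11a (plus strand, 24078056 to 24174123) at 345 kb and Fancl (plus strand, 26386135 to 26471876) at 2653 kb. On the other side are Ahsa2 (minus strand, 23487882 to 23498030) at 168 kb, Usp34 (plus strand, 23306895 to 23490560) at 175 kb, Xpo1 (plus strand, 23256041 to 23298249) at 367 kb and Commd1 (minus strand, 22896136 to 22982382) at 683 kb. The annotation holds 49 genes within 1 Mb of Pus10 with Pus10 itself included. Of the others, 16 are protein-coding, 8 of them in the list of neighbours, and 32 are noncoding genes or pseudogenes.

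**Figure D1:**
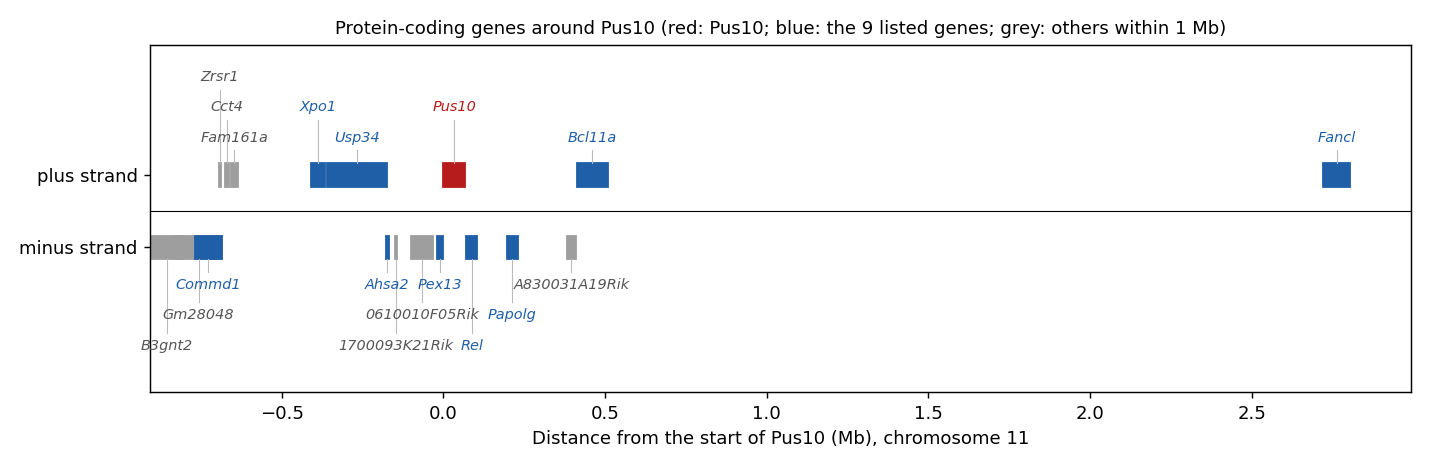
Map of the protein-coding genes around Pus10, drawn to scale. The x axis is the distance from the start of Pus10 in Mb, boxes above the line are on the plus strand and boxes below it on the minus strand. Pex13 abuts Pus10 on its left, Rel lies 3.97 kb past its right end, and Fancl stands alone at 2653 kb.

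Because Pex13 and Pus10 start next to each other, their promoters are the stretch of the neighbourhood that any change at the Pus10 start would touch first, and they are printed for that reason. The sequences are RefSeq's, on GRCm38.p6, from 250 bases before to 50 bases after each annotated start. That of Pus10 is chr11:23665742-23666041 on the plus strand and that of Pex13 is chr11:23665834-23666133 on the minus strand. The table holds a second window for Pus10, chr11:23665424-23665723, which is not printed. It belongs to the start that GENCODE gives, lies before the Pex13 window and does not overlap it. Capitals mark the 208 bases that both printed windows hold, chr11:23665834-23666041, read from opposite strands.
Pus10: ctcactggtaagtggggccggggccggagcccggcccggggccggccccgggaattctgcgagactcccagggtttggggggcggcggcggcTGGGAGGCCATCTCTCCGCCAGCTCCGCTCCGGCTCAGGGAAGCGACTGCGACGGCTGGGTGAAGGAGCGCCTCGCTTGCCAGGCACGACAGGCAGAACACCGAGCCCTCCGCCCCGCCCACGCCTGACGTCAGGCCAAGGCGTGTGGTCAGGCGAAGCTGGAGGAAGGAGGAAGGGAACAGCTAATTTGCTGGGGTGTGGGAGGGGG
Pex13: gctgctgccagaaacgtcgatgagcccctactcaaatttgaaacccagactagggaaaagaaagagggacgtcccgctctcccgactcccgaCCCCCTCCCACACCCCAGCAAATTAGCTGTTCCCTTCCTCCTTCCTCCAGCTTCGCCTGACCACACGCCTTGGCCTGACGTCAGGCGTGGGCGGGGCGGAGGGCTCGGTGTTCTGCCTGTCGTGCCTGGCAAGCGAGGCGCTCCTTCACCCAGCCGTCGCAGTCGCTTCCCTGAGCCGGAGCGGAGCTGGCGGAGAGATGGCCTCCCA
The shared stretch is 67.8% G or C. It holds TGACGTCA, the cAMP response element, which reads the same on both strands and was the only motif searched, after the stretch had been seen. These letters occur in 588 of the 32851 promoter windows of the table (1.79%), and in 2 of the 12 windows of Pus10 and its 9 neighbours, all 10 of which had an entry. Those 2 windows are the overlapping ones printed here, so they hold the same copy, and the second Pus10 window does not hold it. A match describes the letters and is not evidence of binding.

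The lowest total of gene counts in a library was 9.87 M (mega) and the highest 47.3 M. PUS10-OE and Vector were deepest, since there the lowest library had 34.2 M, and the highest library of the other 4 groups had 18.2 M. The 10 HSC markers, among them Procr, Mecom and Hlf, were detected in every group, with summed levels of 400.4 to 2301 CPM per library. Levels are CPM (counts scaled per M of the TMM-adjusted library total), on 1 scale for all 24 libraries. Smart-seq2 libraries carry no strand mark, and reads from overlapping genes on opposite strands cannot be told apart.

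Pus10 itself was read first. In the libraries labelled Pus10-KO it had 32.9, 31.3 and 33.4 CPM, against 17.9, 29.0 and 30.7 CPM in Pus10-WT. All 3 libraries labelled Pus10-KO thus lay above all 3 Pus10-WT libraries, and the log2 fold change was 0.31 (SE 0.279, 95% interval -0.34 to 0.96, edgeR quasi-likelihood test, adjusted p = 0.951). The summed counts per gene thus showed no loss of Pus10 RNA. They do not show which exons the reads come from, so the label could not be checked from them. In PUS10-OE it had 315, 274 and 258 CPM, against 57.4, 102 and 87.9 CPM in Vector, a log2 fold change of 1.76 (SE 0.197, adjusted p = 0.278 in edgeR). That call depended on the method, since DESeq2 gave an adjusted p of 3.07e-16 and edgeR after a filter of 10 CPM one of 0.00120. In miR139-KD its lowest, median and highest values were 21.1, 32.8 and 45.5 CPM, against 25.7, 38.3 and 41.0 CPM in NTC (log2 fold change -0.12, SE 0.202, adjusted p = 0.846 in edgeR).

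In the libraries labelled Pus10-KO, none of the 9 neighbours differed from Pus10-WT beyond the test's threshold. The fitted difference was below 0 for 6 of them (Xpo1, Fancl, Ahsa2, Pex13, Papolg and, at -0.0083 on the log2 scale, Commd1) and above 0 for 3 (Rel, Bcl11a and Usp34), where 49.7% of all genes lay above 0. Their median log2 fold change was -0.33, and that of all 14657 genes tested was -0.0034. By edgeR's quasi-likelihood test with Benjamini-Hochberg adjustment over all genes, 0 of 9 neighbours passed an adjusted p under 0.05, where 9 genes (0.0614%) passed in all. DESeq2, which called 1.04% of all genes, and limma-voom, which called 0.0205%, also called 0 of the 9. No neighbour had an unadjusted p under 0.05, where 6.86% of all genes did. The 9 genes called lie on other chromosomes, and 0 of the 1154 tested genes of chromosome 11 were called. Their number was 2 without Pus10-WT replicate 1, 1 without Pus10-WT replicate 2 or replicate 3, and 0 without Pus10-KO replicate 2 or replicate 3.

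Pex13 and Rel flank Pus10 directly. Pex13 had 35.2, 49.0 and 56.4 CPM in the libraries labelled Pus10-KO, against 76.6, 58.6 and 47.4 CPM in Pus10-WT. The groups overlapped, since the highest library labelled Pus10-KO exceeded the lowest Pus10-WT library, and the log2 fold change was -0.39 (SE 0.261, 95% interval -1.002 to 0.21, adjusted p = 0.900 in edgeR). Rel had 14.7, 9.07 and 11.9 CPM in the libraries labelled Pus10-KO, against 5.41, 11.7 and 4.24 CPM in Pus10-WT. It was the neighbour with the fewest reads here, 145 to 239 counts in the libraries labelled Pus10-KO against 66 to 203 in Pus10-WT. Pus10-WT replicate 2 lay among the libraries labelled Pus10-KO, and the log2 fold change of 0.72 had the widest interval of the 9, from -0.52 to 1.96 (SE 0.532, adjusted p = 0.921 in edgeR). The means of the genes on either side of Pus10 therefore pointed in opposite directions. For both genes the groups overlapped, and neither difference passed the test.

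Among the genes of nuclear RNA handling and transport, Xpo1 had 55.2, 61.0 and 38.6 CPM in the libraries labelled Pus10-KO, against 81.3, 77.1 and 60.8 CPM in Pus10-WT. The highest library labelled Pus10-KO and the lowest Pus10-WT library were level to within 1 CPM, so the groups just overlapped. The log2 fold change was -0.52 (SE 0.226, 95% interval -1.05 to 0.01), with an unadjusted p of 0.052 and an edgeR adjusted p of 0.727. Papolg had 27.3, 27.6 and 21.4 CPM, against 25.3, 39.3 and 30.03 CPM, with overlapping groups and a log2 fold change of -0.33 (SE 0.271).

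The 2 ubiquitin enzymes differed in opposite directions, neither beyond the test's threshold. Fancl had 16.9, 24.4 and 25.9 CPM in the libraries labelled Pus10-KO, against 38.8, 30.04 and 28.4 CPM in Pus10-WT. It was the 1 neighbour of 9 whose groups did not overlap, which held for 13.5% of all genes tested. Its log2 fold change was -0.55 (SE 0.280, 95% interval -1.20 to 0.10, adjusted p = 0.812 in edgeR). Fancl is also the neighbour farthest from Pus10. Usp34 had 76.9, 58.5 and 51.3 CPM, against 41.2, 54.3 and 58.7 CPM, and its groups overlapped (log2 fold change 0.26, SE 0.232).

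Bcl11a had 226, 201 and 151 CPM in the libraries labelled Pus10-KO, against 130.4, 166 and 179 CPM in Pus10-WT, with overlapping groups and a log2 fold change of 0.26 (SE 0.188, 95% interval -0.17 to 0.70). Ahsa2 had 18.5, 34.2 and 20.4 CPM, against 40.3, 30.6 and 27.2 CPM (log2 fold change -0.44, SE 0.322), and its replicate 2 labelled Pus10-KO lay among the Pus10-WT libraries. Commd1 had 27.5, 27.3 and 24.2 CPM, against 24.3, 24.1 and 30.1 CPM. Its means were the closest of the 9, at 26.4 ± 1.83 CPM and 26.2 ± 3.42 CPM (SD, n = 3 each).

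These libraries bound the size of a difference better for some neighbours than for others. The 95% interval lay wholly within 1 log2 unit of 0 for Commd1, Usp34, Papolg and Bcl11a, which is 4 of 9 against 37% of all genes tested. For Xpo1, Fancl, Ahsa2, Pex13 and Rel a difference of more than 1 log2 unit remained inside the interval. The median SE of the 9 was 0.261, against 0.394 over all genes.

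Markers of other cells moved with the labels in this experiment. The summed level of the 9 B cell markers was 82.0 to 103 CPM in the libraries labelled Pus10-KO, against 5048 to 13336 CPM in Pus10-WT, with Cd79a, Ms4a1, Ebf1 and Pax5 at 0 in all libraries labelled Pus10-KO and Pax5 at 0 in all Pus10-WT libraries. The 6 plasma cell markers summed to 8.06 to 17.9 CPM, against 11876 to 14119 CPM, with Mzb1 and Tnfrsf17 at 0 in the libraries labelled Pus10-KO and none at 0 throughout Pus10-WT. Bcl11a and Rel are known to be expressed in B cells, and both had the higher mean in the group with the lower B cell markers. The part of these markers in the values of the neighbours was not tested. In bulk samples, fewer cells of a type and less RNA per cell cannot be told apart.

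**Figure D2:**
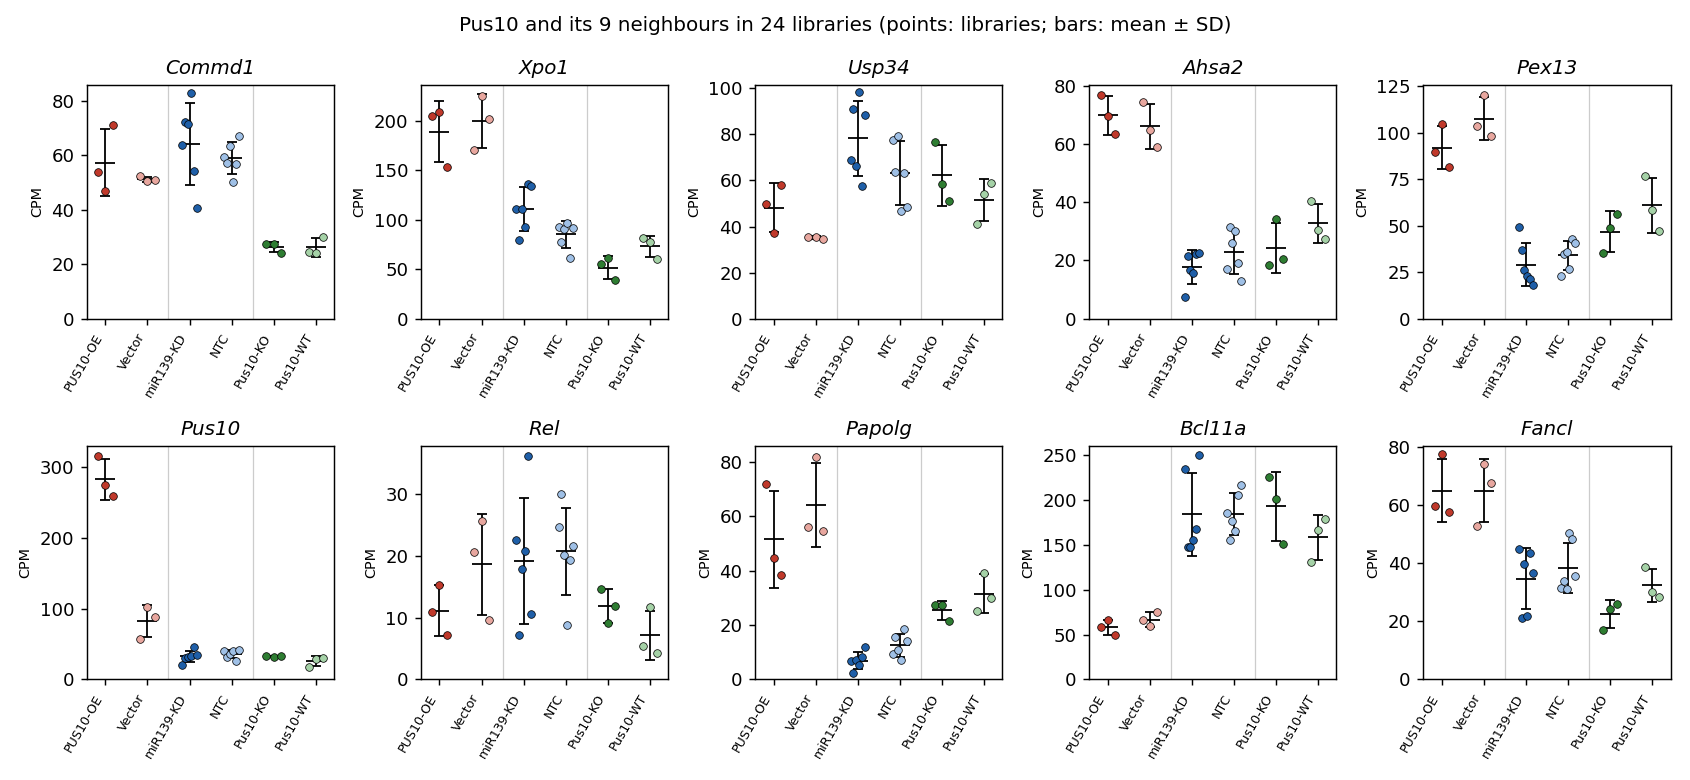
Level of Pus10 and its 9 neighbours in each library (CPM on 1 scale, linear axes starting at 0), genes in chromosomal order, with the mean and SD of each group as bars. In each experiment the treated or mutant group stands left of its control. Pus10 in PUS10-OE stands apart at 258 to 315 CPM, whereas the points of the other genes overlap within experiments except Usp34 in PUS10-OE and Fancl in the libraries labelled Pus10-KO.

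In PUS10-OE cells, where Pus10 itself stood 3.39-fold above Vector, no neighbour passed the test either. Usp34 was the neighbour with the lowest p. It had 49.6, 37.1 and 57.9 CPM in PUS10-OE, against 35.3, 35.7 and 34.4 CPM in Vector. All PUS10-OE libraries lay above all Vector libraries, in the 1 neighbour of 9 whose groups did not overlap, which held for 15.3% of all genes. The log2 fold change was 0.44 (SE 0.190, 95% interval 0.0027 to 0.88), with an unadjusted p of 0.0489 and an edgeR adjusted p of 0.608. The 3 Vector libraries agreed closely for Usp34 (SD 0.637 CPM), whereas those of PUS10-OE spread over an SD of 10.5 CPM.

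Rel had 10.9, 15.3 and 7.14 CPM in PUS10-OE, against 20.6, 25.6 and 9.68 CPM in Vector. The mean was lower, the groups overlapped through Vector replicate 3, and the log2 fold change of -0.77 had an interval of -1.70 to 0.16 (SE 0.403, adjusted p = 0.717 in edgeR). Pex13 had 89.5, 105 and 81.7 CPM, against 104, 121 and 98.5 CPM, a log2 fold change of -0.24 (SE 0.126, adjusted p = 0.714 in edgeR). Papolg had 72.0, 44.6 and 38.3 CPM, against 56.0, 82.0 and 54.8 CPM. Its log2 fold change of -0.34 (SE 0.257) lay within the spread of the PUS10-OE libraries. Bcl11a had 57.9, 66.3 and 49.4 CPM, against 65.8, 59.1 and 75.1 CPM (log2 fold change -0.22, SE 0.151).

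The other 4 neighbours lay within 0.15 of 0 on the log2 scale. Xpo1 had 204, 209 and 153 CPM in PUS10-OE, against 171, 225 and 202 CPM in Vector. Ahsa2 had 76.8, 69.5 and 63.4 CPM, against 74.4, 64.7 and 58.9 CPM. Commd1 had 53.8, 47.0 and 70.9 CPM, against 52.3, 50.6 and 50.9 CPM. These 3 genes had overlapping groups, as did Fancl with 59.8, 77.4 and 57.6 CPM, against 52.9, 74.0 and 67.8 CPM. The log2 fold changes were -0.098 for Xpo1, 0.063 for Ahsa2, 0.15 for Commd1 and -0.017 for Fancl.

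For the neighbours as a whole in this experiment, the fitted difference was above 0 for 3 and below 0 for 6. Their median log2 fold change was -0.10, beside 0.0059 over the 14834 genes tested, of which 50.7% lay above 0. By edgeR 0 of 9 passed, where 0 genes (0%) passed in all. An unadjusted p under 0.05 was found for 1 of 9 neighbours and for 1215 genes (8.19%). DESeq2 called 177 genes (1.19%) and limma-voom 0 (0%), and neither called a neighbour. The 95% interval lay within 1 log2 unit of 0 for 8 of 9 neighbours, all but Rel, and for 54.4% of all genes. The 7 markers of multipotent progenitors summed to 961 to 1006 CPM in PUS10-OE, against 1343 to 1384 CPM in Vector. The summed levels of 4 other marker lists also did not overlap. They were 470.3 to 679 CPM in PUS10-OE against 319 to 359 CPM in Vector for megakaryocytes, 184 to 208 against 164 to 180.1 CPM for plasmacytoid dendritic cells, 52.3 to 96.9 against 98.5 to 138 CPM for B cells, and 72.9 to 90.1 against 96.1 to 115 CPM for granulocytes and monocytes. The part of these lists in the values of the neighbours was not tested.

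In miR139-KD cells Pus10 is not the target, and its level did not differ from NTC beyond the test's threshold. Papolg was the neighbour farthest from 0 on the log2 scale. Its lowest, median and highest values were 2.25, 7.01 and 11.8 CPM in miR139-KD, against 7.33, 12.4 and 18.7 CPM in NTC, from 28 to 135 counts in miR139-KD libraries and 106 to 244 counts in NTC libraries. In 4 of 6 miR139-KD libraries it lay below the lowest NTC library. The log2 fold change was -0.85 (SE 0.418, 95% interval -1.74 to 0.04), with an unadjusted p of 0.0606 and an edgeR adjusted p of 0.341.

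Xpo1 had the lowest p. Its lowest, median and highest values were 79.2, 111 and 136 CPM in miR139-KD, against 61.4, 91.2 and 97.0 CPM in NTC. In 4 of 6 miR139-KD libraries it lay above the highest NTC library, and the log2 fold change was 0.39 (SE 0.156, 95% interval 0.06 to 0.72, unadjusted p = 0.0250, adjusted p = 0.224 in edgeR). Usp34 had 57.6, 78.7 and 98.3 CPM as its lowest, median and highest values, against 46.9, 63.4 and 79.4 CPM (log2 fold change 0.32, SE 0.1804, adjusted p = 0.417 in edgeR). Both genes had overlapping groups and a higher mean in miR139-KD.

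The remaining neighbours of the second experiment lay between -0.36 and 0.13 on the log2 scale. Ahsa2 had a lowest, median and highest value of 7.31, 19.1 and 22.7 CPM in miR139-KD, against 12.9, 22.6 and 31.4 CPM in NTC (log2 fold change -0.36, SE 0.312). Pex13 had 18.2, 24.5 and 49.0 CPM, against 23.0, 35.3 and 43.1 CPM (-0.22, SE 0.267). The miR139-KD libraries of Pex13 enclosed the whole range of NTC. Fancl had 21.1, 38.1 and 44.9 CPM, against 31.1, 34.6 and 50.2 CPM (-0.14, SE 0.235). Commd1 had 40.5, 67.6 and 82.8 CPM, against 50.04, 58.2 and 67.0 CPM (0.13, SE 0.169). Both had overlapping groups. Rel had 7.23, 19.3 and 36.1 CPM, against 8.78, 20.8 and 30.04 CPM (-0.10, SE 0.379), and Bcl11a 147, 161 and 250.4 CPM, against 156, 181 and 216 CPM (0.0086, SE 0.154). Of the 9 neighbours, the means of Bcl11a were the closest between miR139-KD and NTC, although its sign turned negative in 3 of 8 fits by other methods or filters and in 5 of 12 with a library left out.

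Of the 9 neighbours, 0 passed in edgeR, where 361 of 13295 genes (2.72%) did. The count of all genes was 196 without NTC replicate 3 and lay between 224 and 238 without NTC replicate 2 or 4 or miR139-KD replicate 1 or 2. An unadjusted p under 0.05 was found for 1 of 9 neighbours and 16% of all genes. DESeq2 called 795 genes (5.98%) and limma-voom 517 (3.89%), and neither called a neighbour. No neighbour had groups that did not overlap, where 3.38% of all genes had. The median log2 fold change of the 9 was -0.10, beside 0.017 over all genes. It was above 0 for 4 and below 0 for 5, where 51.4% of all genes lay above 0. The 95% interval lay within 1 log2 unit of 0 for 7 of 9 neighbours and 46% of all genes. The 8 megakaryocyte markers summed to 1238 to 2894 CPM in miR139-KD, against 114 to 369.5 CPM in NTC, the 7 multipotent progenitor markers to 303 to 391.5 CPM, against 779 to 1389 CPM, and the part of either in the values of the neighbours was not tested. Over all 3 comparisons and every alternative fit, the lowest adjusted p of a neighbour was 0.106, for Papolg in this experiment.

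**Figure D3:**
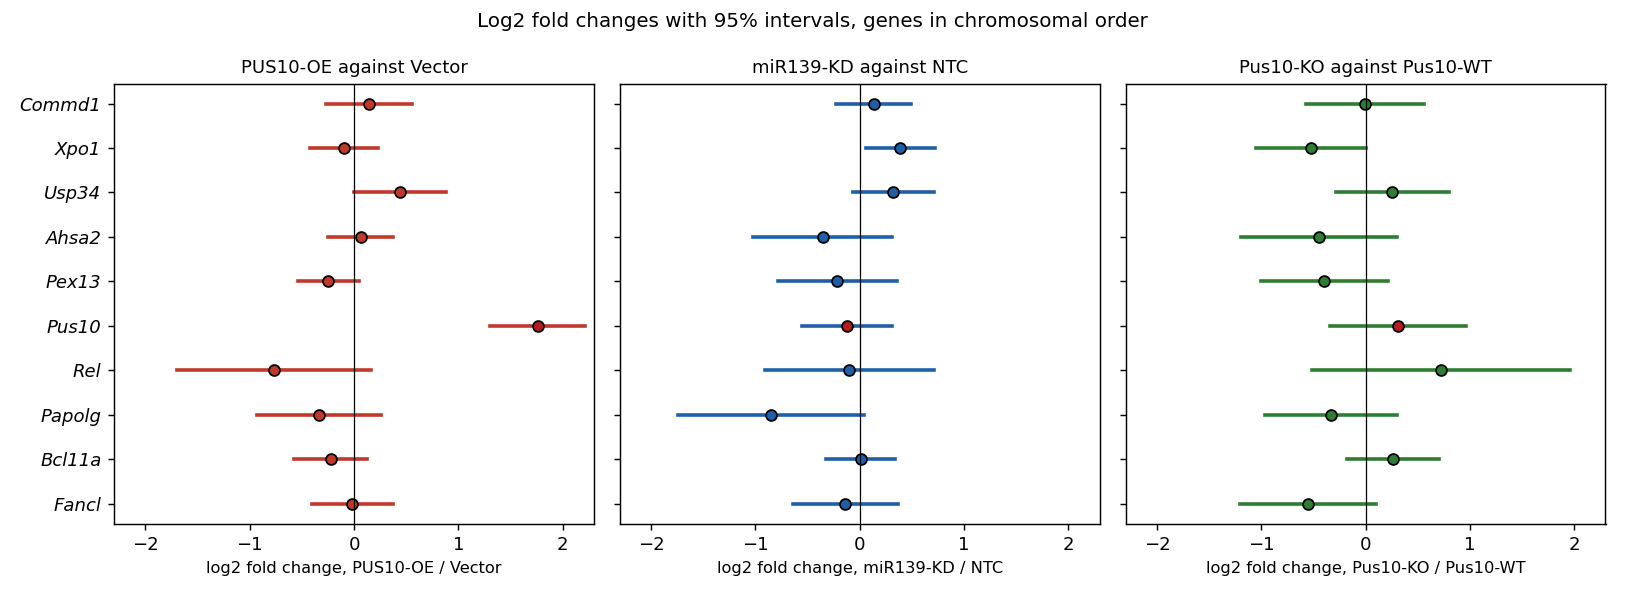
Log2 fold change of Pus10 (between Pex13 and Rel) and its 9 neighbours with 95% intervals in each comparison, genes in chromosomal order from top to bottom. Pus10 in PUS10-OE lies at 1.76. The intervals of the neighbours cross 0 with the exceptions of Xpo1 in miR139-KD (0.06 to 0.72) and Usp34 in PUS10-OE, whose lower bound is 0.0027.

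The listed genes are part of a denser neighbourhood, and the other protein-coding genes within 1 Mb were read in the same fits. Cct4, a subunit of the cytosolic chaperonin, was the most abundant per length. It averaged 503 ± 88.8 CPM in the libraries labelled Pus10-KO and 532 ± 46.6 CPM in Pus10-WT (SD, n = 3 each), and the log2 fold change was -0.0998 (SE 0.143). 0610010F05Rik, the gene beyond Pex13, averaged 17.6 ± 10.7 CPM and 20.1 ± 3.17 CPM (-0.21, SE 0.456). Zrsr1, which lies inside Commd1 on the other strand, averaged 11.5 ± 3.91 CPM and 12.2 ± 0.148 CPM (-0.09, SE 0.392). All 3 had overlapping groups. Fam161a and B3gnt2 had means below 3 CPM in the libraries labelled Pus10-KO and in Pus10-WT. None of these 5 genes was called in any comparison. The shares of all genes called by edgeR were 0% in PUS10-OE, 2.72% in miR139-KD and 0.0614% in the libraries labelled Pus10-KO. A830031A19Rik had at most 12 counts in a library and was not tested, and Gm28048 and 1700093K21Rik had 0 counts in all 24 libraries, which allows up to 3 counts, or 0.0684 to 0.293 CPM, per library and covers counting error only.

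In a wider window, no called gene lay within 5 Mb of Pus10 in any comparison. The shares of all genes called were 0% in PUS10-OE, 2.72% in miR139-KD and 0.0614% in Pus10-KO. At such shares, a count of 0 among so few genes says little about the neighbourhood. In the libraries labelled Pus10-KO, 17 genes within 1 Mb were tested, Pus10 not counted. The fitted difference was above 0 for 5 of them and below 0 for 12, and 0 had an unadjusted p under 0.05. Within 5 Mb there were 44 tested genes, 19 above 0 and 25 below, with a median log2 fold change of -0.041 and 0 unadjusted p under 0.05. Within 10 Mb, 4 of 92 genes (4.35%) had an unadjusted p under 0.05, beside 6.86% of all genes. Of the 92, 0 were called, where 9 genes (0.0614%) were called in all. The median absolute log2 fold change was 0.36 within 0.5 Mb, 0.26 within 1 Mb and 0.36 within 2 Mb. It was 0.24 within 5 Mb, 0.30 within 10 Mb, 0.39 for the 9 neighbours and 0.31 over all genes. In PUS10-OE 0 of 93 genes within 10 Mb, Pus10 again not counted, were called. There 0 of all 14834 genes were called, so this count could not have come out otherwise. In miR139-KD 3 of 87 were, the nearest of which, Gm12020, lies at -5.34 Mb (before the start of Pus10), and 25 of the 1078 tested genes of chromosome 11 (2.32%) were called, beside 2.72% of all genes.

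**Figure D4:**
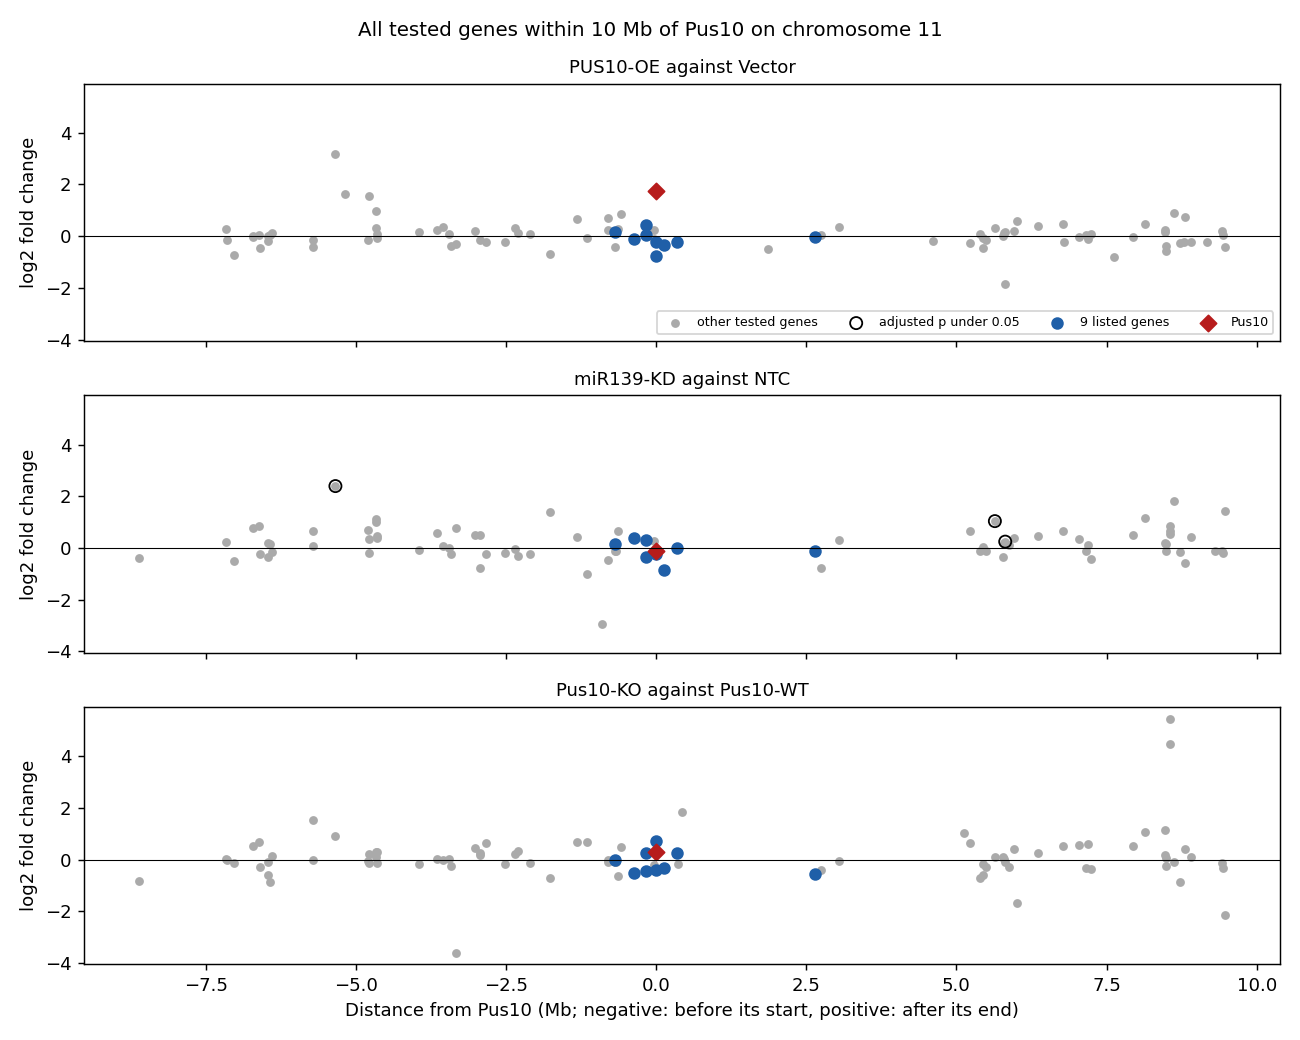
Log2 fold change of each tested gene within 10 Mb of Pus10 against its distance from Pus10 in Mb, 1 panel per comparison. Blue points are the 9 neighbours, the red diamond is Pus10, and rings mark an edgeR adjusted p under 0.05. Rings appear only in the panel of miR139-KD, for 3 genes, all more than 5 Mb from Pus10.

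Levels of several neighbours differed between the experiments. Bcl11a stood at 57.9 ± 8.45 CPM in PUS10-OE and 66.7 ± 8.003 CPM in Vector, at 184 ± 46.4 CPM in miR139-KD and 184 ± 23.3 CPM in NTC, and at 193 ± 38.1 CPM in the libraries labelled Pus10-KO and 158 ± 25.1 CPM in Pus10-WT. No PUS10-OE or Vector library reached the lowest library of the other 4 groups. Papolg showed the reverse, with 51.6 ± 17.9 CPM in PUS10-OE, 64.3 ± 15.4 CPM in Vector, 6.94 ± 3.20 CPM in miR139-KD, 12.6 ± 4.27 CPM in NTC, 25.4 ± 3.48 CPM in the libraries labelled Pus10-KO and 31.5 ± 7.14 CPM in Pus10-WT. Between Pus10-KO and NTC, neighbours in that order, the libraries did not overlap, and between Pus10-WT and PUS10-OE they did.

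Xpo1, Pex13, Ahsa2 and Fancl were likewise highest in the first experiment, where each had libraries above all libraries of the other groups. Xpo1 then followed in the order miR139-KD, NTC, Pus10-WT and Pus10-KO, with overlap at each step. Pex13 and Ahsa2 followed as Pus10-WT, Pus10-KO, NTC and miR139-KD, again with overlap at each step. For Fancl the order was NTC, miR139-KD, Pus10-WT and Pus10-KO, and only the last step had no overlap. Commd1 was lowest in the third experiment, at 26.4 CPM in the libraries labelled Pus10-KO and 26.2 CPM in Pus10-WT, below all 18 other libraries. Usp34 was highest in miR139-KD and lowest in Vector, and only the step from PUS10-OE to Vector had no overlap. Rel was highest in NTC (20.7 CPM) and lowest in Pus10-WT (7.11 CPM), with overlap at every step. The experiments were sequenced to different depths and each has its own cells, so a difference between experiments cannot be told apart from a difference in handling.

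The spread between libraries of a group also differed among the neighbours. The coefficient of variation of Rel ranged from 23.5% in the libraries labelled Pus10-KO to 56.3% in Pus10-WT, and that of Papolg from 13.7% to 46.1%. Bcl11a, with at least 1819 counts in every library, kept between 12.0% and 25.3%. Commd1 ranged from 1.79% in Vector to 23.3% in miR139-KD.

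Levels between genes were compared per kilobase of exon. In PUS10-OE the neighbours ran from Xpo1 with 26.3 ± 4.29 CPM per kb over Pex13 (19.8 ± 2.51), Fancl (19.3 ± 3.23), Ahsa2 (15.4 ± 1.48), Commd1 (9.64 ± 2.08), Papolg (9.40 ± 3.26), Bcl11a (4.39 ± 0.641) and Usp34 (2.61 ± 0.569) to Rel (1.49 ± 0.548). Pex13 and Fancl, and Commd1 and Papolg, were closer to each other than their SD. In the libraries labelled Pus10-KO Bcl11a came first with 14.6 ± 2.89 CPM per kb, Pex13 followed with 10.1 ± 2.32, and Rel was last with 1.59 ± 0.375. In Pus10-WT Pex13 had 13.1 ± 3.17 CPM per kb and Bcl11a 12.02 ± 1.91, a difference smaller than either SD, and Rel was last with 0.952 ± 0.536. In miR139-KD Xpo1 (15.4 ± 3.13) and Bcl11a (13.95 ± 3.53) led, and Papolg was last with 1.26 ± 0.582 CPM per kb. NTC had Bcl11a first (13.98 ± 1.77) and Papolg last (2.29 ± 0.778). Pus10, per kb, stood at 65.3 ± 6.76 in PUS10-OE, above every neighbour, and at 7.52 ± 0.255 in the libraries labelled Pus10-KO, between Pex13 and Xpo1.

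**Figure D5:**
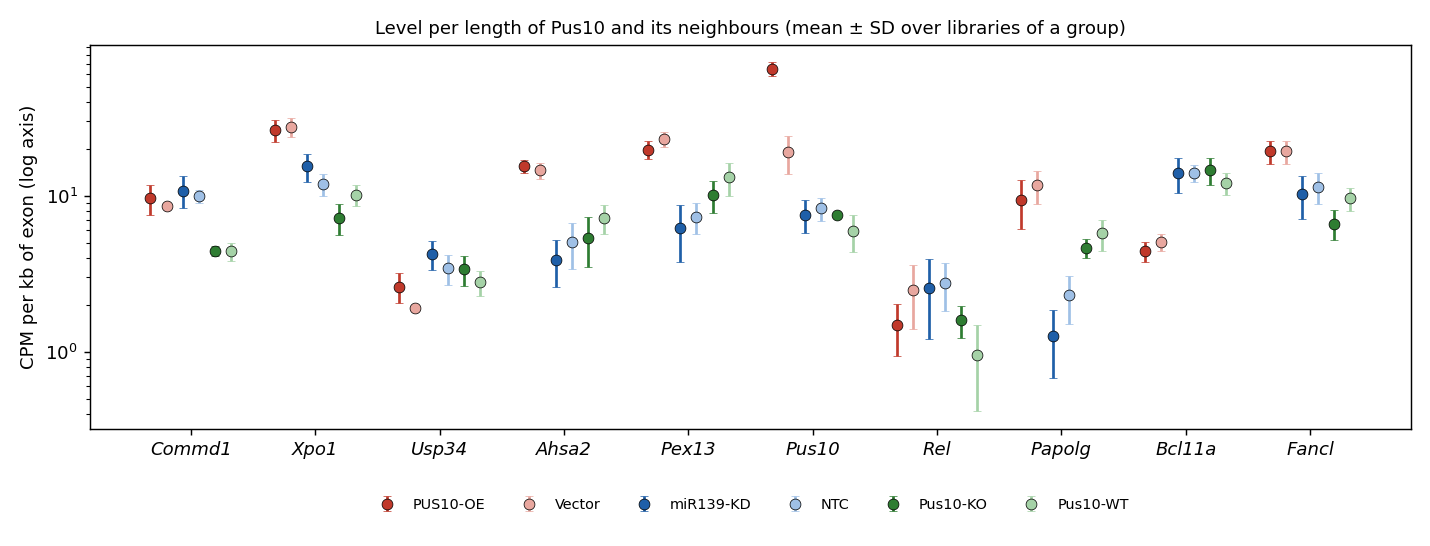
Level per length of Pus10 and its neighbours in the 6 groups (CPM per kb of exon, log axis), as mean and SD over the libraries of a group. Rel and Usp34 stay low in every group, and Bcl11a is lower in PUS10-OE and Vector (4.39 and 5.06 CPM per kb) than in the other 4 groups.

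Overlap with other genes limits how some of these levels can be read. Ahsa2 shares 50.2% of its exon length with other genes, 2137 bases of it with Usp34 on the opposite strand. If none of its counted reads lay in shared exons, its level in PUS10-OE would be 30.9 ± 2.97 CPM per kb of unshared exon, not 15.4. That value divides the same counts by the unshared length, and no reads were counted anew. Usp34 shares 11.6% of its exons and Fancl 13.7%, in the case of Fancl with Vrk2. Commd1 shares 6.94% with Zrsr1 and 4.95% with Gm28048, and Bcl11a and Papolg share 2.398% and 1.66% with antisense RNAs. Xpo1 and Rel share none. Reads that fit several genes were counted as ambiguous and came to 6.66% to 6.88% of reads in PUS10-OE, 6.53% to 6.60% in Vector, 12.3% to 20.1% in miR139-KD, 13.02% to 16.5% in NTC, 8.52% to 9.24% in the libraries labelled Pus10-KO and 8.94% to 9.40% in Pus10-WT.

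Each neighbour was also set in its own pathway. Of all genes, edgeR called 0% in PUS10-OE, 2.72% in miR139-KD and 0.0614% in the libraries labelled Pus10-KO. With 0 genes called in all, a count of 0 called members in PUS10-OE was fixed in advance. For Rel, 0 of the 13 other NF-kB subunits, inhibitors and kinases were called in any comparison. Of 18 NF-kB target genes, 16 were tested in PUS10-OE and 0 were called. Of the 16, 12 had a log2 fold change below 0, and the median was -0.51 beside 0.0059 over all genes. The chemokine genes Ccl3 (log2 fold change -2.97, SE 0.623, adjusted p = 0.337 in edgeR) and Ccl4 (-2.27, SE 0.696, adjusted p = 0.452 in edgeR) stood lowest. In miR139-KD, 0 of 14 tested target genes were called, and in the libraries labelled Pus10-KO 0 of 14. The direction was not the same there. In miR139-KD 9 lay above 0 and 5 below, with a median of 0.32 beside 0.017 over all genes. In the libraries labelled Pus10-KO 6 lay above 0 and 8 below, with a median of -0.14 beside -0.0034.

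For Ahsa2, the 17 HSP90 chaperones and co-chaperones had 3 members that fell in miR139-KD: Dnaja1, a J-domain partner of HSP70 (log2 fold change -0.54, adjusted p = 0.0142 in edgeR), Fkbp4, an immunophilin that works with HSP90 (-0.54, adjusted p = 0.0200), and Hspa8, the constitutive HSP70 (-0.55, adjusted p = 0.0225). Log2 fold changes were below 0 for 15 of the 17, the list's median was -0.31, beside 0.017 over all genes, and 1.31% of all genes were called lower. In the libraries labelled Pus10-KO 16 of 17 had a log2 fold change below 0, with a median of -0.21. There 0 were called, where 0.0614% of all genes were. In PUS10-OE 0 were called, where 0 genes were called in all, and the median was 0.019. For Bcl11a, 12 of the 16 NuRD subunits and embryonic globins were tested in miR139-KD. Of these, 2 were called lower, as were 1.31% of all genes: Mta3 (log2 fold change -1.16, adjusted p = 0.00115 in edgeR) and Rbbp4 (-0.62, adjusted p = 0.0346). The list as a whole did not lie lower, with 7 of the 12 above 0, 5 below and a median of 0.091, beside 0.017 over all genes. The embryonic globin genes Hbb-bh1 and Hba-x had 0 counts in every library, and Hbb-y had at most 141 counts in 1 NTC library and 0 in the libraries labelled Pus10-KO.

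In edgeR 0% of all genes were called in PUS10-OE, 2.72% in miR139-KD and 0.0614% in the libraries labelled Pus10-KO. Beside these shares, the remaining lists held no called gene in any comparison. They were the 18 genes of the Fanconi anemia core complex and its targets for Fancl, 15 peroxisome biogenesis genes for Pex13, 25 nuclear transport receptors and Ran cycle genes for Xpo1, 22 poly(A) polymerases and cleavage factors for Papolg, the 10 tested of 12 COMMD and CCC complex genes for Commd1, and the 16 tested of 17 ubiquitin proteases and Axin regulators for Usp34. Their medians in the libraries labelled Pus10-KO were -0.0030 for the Fanconi list, 0.083 for peroxisome biogenesis, -0.12 for nuclear transport, 0.0068 for poly(A) factors, 0.011 for the COMMD list and 0.10 for the Usp34 list. In PUS10-OE the 6 medians lay between -0.10 and 0.11, and in miR139-KD between -0.081 and 0.13.

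Likeness of pattern was measured as Pearson's r between deviations from the group means of log2(CPM + 1) over the 24 libraries, across 8810 genes. The gene most like each neighbour lay on another chromosome for 7 of the 9. It was Rps19-ps6 for Commd1 (r = 0.88), Degs1 for Ahsa2 (0.84), Anapc10 for Xpo1 (0.81), Ubac2 for Usp34 (0.80), Asah2 for Papolg (0.79), Ube2d2a for Bcl11a (0.77) and Slc39a6 for Rel (0.76). The exceptions were Fancl, with Dnajc7 (0.81), and Pex13, with Gm12183 (0.81), both on chromosome 11. For Pus10 it was Csnk1d (0.77), also on chromosome 11. That chromosome held 1154 of the 14657 genes tested in Pus10-KO against Pus10-WT. A most-like gene on another chromosome is therefore the common case. No neighbour of Pus10 was the gene most like it or most like another neighbour. These values are the highest of many and share the libraries and their scaling, and they are given as a description.

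By the same measure the neighbours were set against Pus10, as 9 relations. Pex13 had the strongest, with Pearson's r = -0.58 (permutation within groups p = 0.00875, adjusted over the 9 relations 0.0787) and Spearman's rho = -0.47 (permutation p = 0.0293, adjusted 0.220). Without miR139-KD replicate 1 and Vector replicate 1, the libraries farthest from the median of Pus10, r was -0.51. Within the experiments r was 0.34 over the 6 libraries of PUS10-OE and Vector, -0.75 over the 12 of miR139-KD and NTC, and -0.66 over the 6 of Pus10-KO and Pus10-WT, so the sign was not the same in all 3. The other 8 neighbours had r between -0.094 and 0.39 and, like Pex13, did not pass the adjustment.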

How the data were processed

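RNA of sorted HSCs was turned into Smart-seq2 libraries, per the labels' protocols. The authors deposited raw counts per gene, whole numbers without normalization, as 55487 gene IDs and 5 summary entries for each library. The submitters' processing notes name HISAT2 2.1.0, HTSeq 0.11.2, the build mm10 and DESeq2 without a version. The annotation release and the counting mode are not given in the sources used here. Reads without a gene made up 3.70% to 12.0% of the total and ambiguous reads 6.53% to 20.1%, and neither entered the library sizes. Symbols for 55394 IDs came from GENCODE M21.

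Separate fits were made for the 3 comparisons with edgeR 4.0.16 in R 4.3.3, each on the libraries of that comparison alone (filterByExpr, TMM, robust quasi-likelihood F test, two-sided). Genes were called where the p adjusted after Benjamini and Hochberg over the genes tested was under 0.05. SE came from the log2 fold change and F, and the 95% interval from the t distribution with the degrees of freedom of the fit. Printed CPM were scaled by TMM over all 24 libraries, so a ratio of means can differ slightly from the fitted fold change. Within groups, all 42 pairs of libraries differed beyond sampling noise (chi-square over its degrees of freedom at least 30.1).

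The 9 neighbours, the 10 pathway lists and the 10 marker lists were chosen with earlier results of these data known. Genes named are Pus10, the neighbours, other protein-coding genes within 1 Mb, up to 4 called members of each pathway list and the gene most like each neighbour (mean log2 CPM of at least 3 and at least 1 CPM in every library). Ccl3 and Ccl4 were named after their values were seen. The fits were tested on simulated counts. A simulated 2-fold change was called for 24% of 50 genes in the Pus10-KO comparison, 46% in miR139-KD and 64% in PUS10-OE. For a 4-fold change the shares were 72%, 84% and 98%. The simulated counts of a comparison also held 50 genes changed 8-fold and 50 changed 16-fold. So many changed genes ease the adjustment of p for all of them. The shares are therefore likely to overstate the chance of calling a lone changed neighbour. In the real data, Pus10 in PUS10-OE stood 3.39-fold above Vector and had the lowest p of all genes. The main edgeR fit still did not call it (adjusted p = 0.278). The alternatives swapped in DESeq2 1.42.0, limma-voom with quality weights (limma 3.58.1), DESeq2's size factors in edgeR, upper-quartile scaling, no filter on low counts, a 10 CPM minimum, a block for the replicate number, or 1 fit over the 6 groups, or omitted a library. Relations with Pus10 used 100000 permutations within groups. Plots used Python 3.11.15 with matplotlib 3.10.9.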

Additional observations from a re-analysis of the deposited data

How the results depend on the processing

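No neighbour was called under any alternative in any comparison. Of 479 values of single genes under the alternatives, 451 kept their direction and their side of the threshold, 25 turned sign and 3 passed the threshold. The 3 were Pus10 in PUS10-OE, with adjusted p = 3.07e-16 in DESeq2, 0.00120 in edgeR after a filter of 10 CPM and 0.00311 with all 6 groups in 1 fit. Values that turned sign lay close to 0. Fancl in PUS10-OE was 0.012 with upper-quartile scaling and 0.0013 with all groups in 1 fit. Bcl11a in miR139-KD was -0.034 in limma-voom, -0.019 with the replicate block and -0.0036 with all groups in 1 fit. Commd1 in the libraries labelled Pus10-KO was 0.0090 in limma-voom and 0.011 with all groups in 1 fit. With each library left out in turn, Commd1 ranged from -0.075 to 0.28, Xpo1 from -0.19 to 0.00083, Ahsa2 from -0.012 to 0.17 and Fancl from -0.15 to 0.079 in PUS10-OE, Rel from -0.38 to 0.071 and Bcl11a from -0.097 to 0.067 in miR139-KD, and Commd1 from -0.069 to 0.11 in the libraries labelled Pus10-KO. The cause was not tested. Papolg in miR139-KD had no value under the filter of 10 CPM, which removed it.

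Counts of called genes moved more. For PUS10-OE they were 177 in DESeq2, 9 after a filter of 10 CPM and 5 with all groups in 1 fit. For miR139-KD they were 795 in DESeq2, 188 with the replicate block, 792 with all groups in 1 fit, and 196 to 340 with a library left out. For Pus10-KO they were 152 in DESeq2, 3 in limma-voom, 2 with the replicate block, 15 with all groups in 1 fit, and 0 to 10 with a library left out. The replicate number was not taken as pairing the libraries, since correlations of same-numbered libraries' deviations lay between -0.095 and 0.0081. With 66 to 239 counts per library, Rel had the least precise value in the libraries labelled Pus10-KO and Pus10-WT.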
